A study of Mus musculus with 98 samples.

Results

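The genes described here are Hoxa5, Hoxa7, Hoxa9, Hoxa10 and Meis1, 5 of the 23420 gene symbols measured, with the PBX genes and the other partners of HOX proteins set beside them. They were chosen by name, and all 5 had an entry in both expression tables. The study measured full-length transcriptomes of single innate lymphoid cells (ILCs), lymphocytes that carry no rearranged antigen receptor, from mouse intestine. R9-ILCs, on a C57BL/6 background, carried GFP, CD45.2 and CD127 but no lineage markers and were regenerated from pluripotent stem cells and sorted from the gut of Rag2-/-Il2rg-/- recipients 3 weeks after transplantation; those recipients lack their own T, B and innate lymphoid cells and keep their myeloid and epithelial cells. WT-ILCs passed the same gate without GFP and came from the intestine of wild-type mice (C57BL/6, CD45.2) at 8 weeks of age. The R9 titles fall into a series without a numeric ending (32 cells) and a series with the ending 1 (35 cells), and the labels do not say what the ending means. From what is known of the R9 system, and not from the labels, its stem cells carry inducible Runx1 and Hoxa9 transgenes, so a Hoxa9 value in an R9 cell may hold transgene and endogenous transcripts, which a value per gene cannot tell apart.

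HOX genes encode homeodomain transcription factors and lie in 4 clusters whose genes are used in domains along the body axis. In blood, the 5′ HOXA genes are active in stem and progenitor cells and are shut down as cells mature, and Hoxa9 is needed for normal early lymphoid development in mice. HOX proteins bind DNA weakly alone and gain affinity and choice of site by pairing with homeodomain cofactors of the TALE class: PBX proteins bind beside the HOX protein, and MEIS and PREP proteins bind PBX and keep it in the nucleus. Meis1 is the usual partner of Hoxa9 in blood progenitors and in leukaemia.

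The HOXA members lie side by side on chromosome 6, all on the minus strand (GRCm38, the build also called mm10). Hoxa9 (ENSMUSG00000038227) spans chr6:52223100-52231089. Hoxa10 (chr6:52231197-52240854) begins 107 bases from it, and Hoxa7 (chr6:52214491-52221854) ends 1245 bases from it on the other side. Hoxa5 lies at chr6:52201754-52204587, and Meis1 is elsewhere, at chr11:18879817-19018985 on the minus strand. The exons of Hoxa9 overlap those of the microRNA gene Mir196b on the same strand and no antisense gene, while Hoxa7 overlaps the antisense gene Hoxaas3. The start regions of Hoxa9, Hoxa10 and Meis1 are shown because these genes had different patterns in the same cells: Hoxa9 was seen in most R9 cells, its neighbour Hoxa10 in no cell and its partner Meis1 in some cells. Each is 250 bases before to 50 bases after a RefSeq start site on GRCm38.p6, read 5′ to 3′ on the minus strand, at chr6:52227321-52227620 for Hoxa9 (a start inside the gene's full span), chr6:52240805-52241104 for Hoxa10 and chr11:19018920-19019219 for Meis1. Capitals mark matches to 3 motifs searched on both strands: TGATTNAT for HOX with PBX, TGACAG for MEIS and TGTGGT for RUNX. None of the 3 was found in the Hoxa9 or Hoxa10 window, and the Meis1 window held 1 RUNX match. Of 32851 mouse windows of this kind, 3.22%, 19.2% and 16.8% held a HOX with PBX, a MEIS and a RUNX match. A match is a description of the letters and not a binding site.
Hoxa9: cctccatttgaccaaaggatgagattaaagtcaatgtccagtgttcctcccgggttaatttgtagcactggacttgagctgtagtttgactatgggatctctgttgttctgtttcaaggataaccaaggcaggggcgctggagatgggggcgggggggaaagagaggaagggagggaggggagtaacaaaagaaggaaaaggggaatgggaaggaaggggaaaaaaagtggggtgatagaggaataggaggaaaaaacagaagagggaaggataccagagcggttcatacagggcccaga
Hoxa10: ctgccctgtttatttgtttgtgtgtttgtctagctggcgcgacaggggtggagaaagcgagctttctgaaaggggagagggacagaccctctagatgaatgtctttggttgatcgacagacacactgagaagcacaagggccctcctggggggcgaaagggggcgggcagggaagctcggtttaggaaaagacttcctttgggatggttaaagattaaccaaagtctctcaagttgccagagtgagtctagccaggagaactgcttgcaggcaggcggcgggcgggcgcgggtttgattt
Meis1: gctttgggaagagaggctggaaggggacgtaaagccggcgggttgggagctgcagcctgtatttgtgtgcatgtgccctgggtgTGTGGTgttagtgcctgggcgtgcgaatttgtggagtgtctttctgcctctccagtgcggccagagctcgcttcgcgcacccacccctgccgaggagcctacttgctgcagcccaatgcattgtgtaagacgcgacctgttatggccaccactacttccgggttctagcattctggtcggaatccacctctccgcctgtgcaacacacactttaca

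Expression was deposited as TPM, transcript abundance scaled to the same total in each cell, with a table for R9 and another for WT that were normalized apart. Ratios between the groups are therefore levels set across tables: log2 of (mean TPM in R9 + 1) over (mean TPM in WT + 1), which understates differences of low genes. TPM keeps no sequencing depth. As the nearest view of it, genes reaching 1 TPM had a median number of 2082.5 in R9 cells without an ending (range 1187 to 2989), 2429 in those of ending 1 (1913 to 6042) and 2092.5 in WT cells (793 to 7518). Some WT columns were joined because their values were alike, which left 22 WT cells from 31 columns, and that joined columns are 1 cell is an assumption. In 1 of these cells the joined columns carried different title numbers, 16 and 32. A listed 0 may be an estimate that failed, since 24 of the 32 R9 cells without an ending, 1 of the 35 of ending 1 and 9 of the 22 WT cells had no Gapdh, which all cells need. Cells with 20% or more of their TPM in 1 gene numbered 14, 0 and 1 of the same sets. The labels name no animals, so each set counts as 1 sample, no p-value was computed, and an SD is a spread over cells. Intervals are exact Clopper-Pearson 95% intervals of a share of cells and cover counting error only. Markers of ILCs were seen as the label says, with all 8 members of the core list seen in each set, and 7, 7 and 6 of them in at least 50% of the cells of R9 without an ending, R9 of ending 1 and WT.

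Hoxa9 was the only HOX gene seen in more than 1 cell of any set, and it was highest in the R9 series of ending 1. Its TPM in R9 cells without an ending had a lowest value of 0, a median of 15.4 and a highest value of 407. In R9 cells of ending 1 the lowest was 1.21, the median 549 and the highest 3044 TPM. In WT cells the lowest was 0, the median 2.08 and the highest 175 TPM. The 3 ranges overlap, but 21 of the 35 cells of ending 1 lie above the highest cell of R9 without an ending and 24 lie above the highest WT cell. Means were 51.5 ± 91.6 TPM (SD over 32 cells), 785 ± 828 TPM (SD over 35 cells) and 15.8 ± 38.3 TPM (SD over 22 cells) in R9 without an ending, R9 of ending 1 and WT. By mean TPM Hoxa9 ranked 1501 of the 9423 genes with a value in R9 without an ending, 180 of 11712 in R9 of ending 1 and 4354 of 11903 in WT.

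Hoxa9 was detected at 1 TPM or more in 18 of the 32 R9 cells without an ending (56.2%, 37.7 to 73.6), in 35 of 35 R9 cells of ending 1 (100%, 90.0 to 100) and in 12 of 22 WT cells (54.5%, 32.2 to 75.6). The interval of ending 1 does not overlap the others, which cover nearly the same range. Of all 23420 genes, 250 (1.07%) were seen in every cell of ending 1. Hoxa9 was among the 5 that were also seen in at most 60% of the cells of both other sets, and the other 4 were Atp5d, Cmc2, Gm9846 and Ptms, picked out by this pattern after their values were seen. The limit of 60% lies just above the shares of Hoxa9 in those sets, so that Hoxa9 meets it is not a result. At 100 TPM or more, Hoxa9 was found in 5 of 32 (15.6%, 5.28 to 32.8), 26 of 35 (74.3%, 56.7 to 87.5) and 1 of 22 cells (4.55%, 0.12 to 22.8). The ending-1 cells were not uniform. In 7 of them Hoxa9 lay between 1.21 and 11.8 TPM, within the range of WT cells, and the next value was 43.8 TPM. The 7 cells had a median of 2915 genes (2178 to 5787), against 2373 (1913 to 6042) in the other 28.

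**Figure D1:**
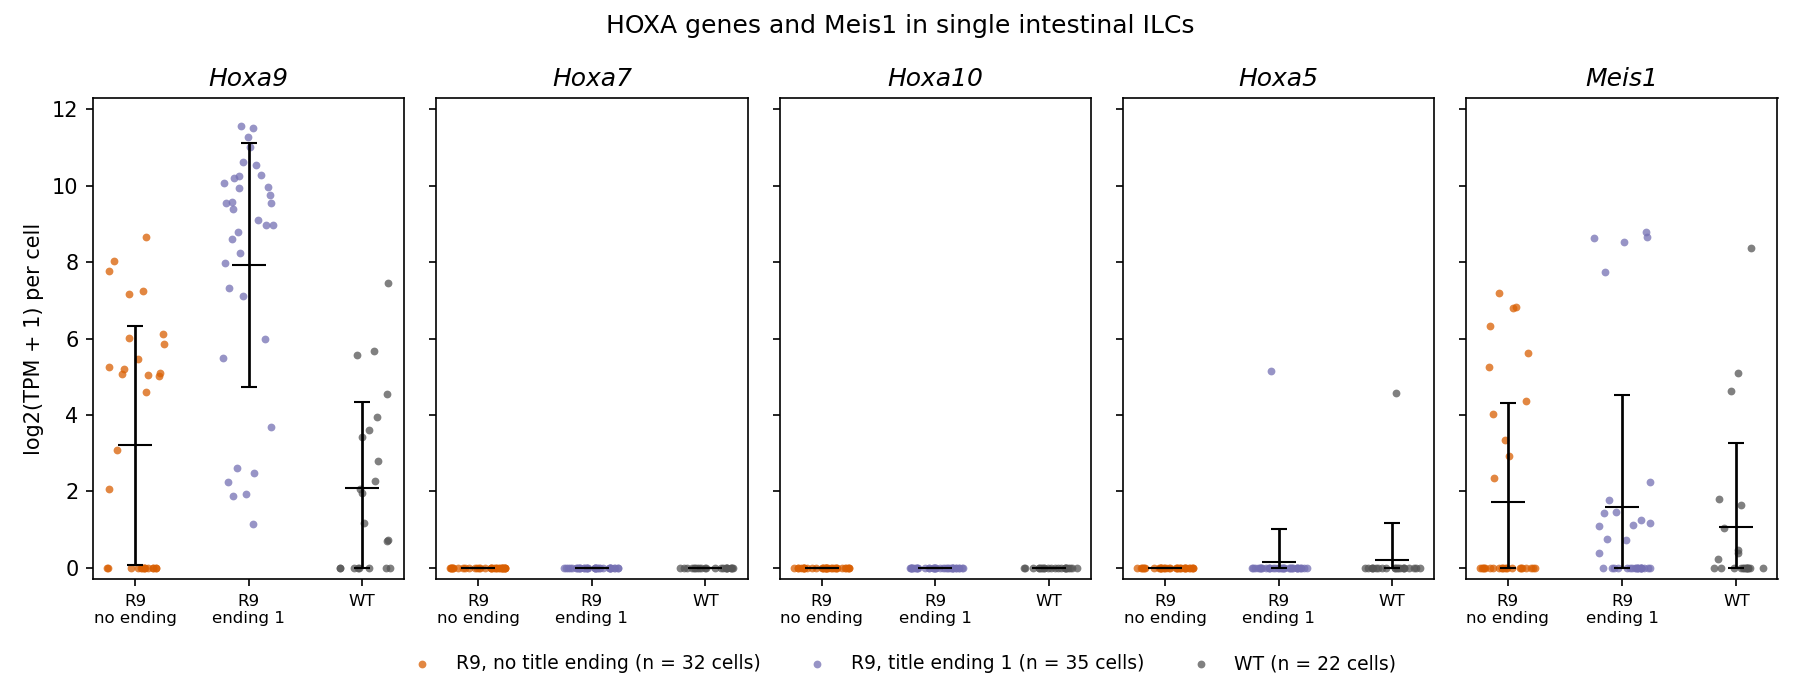
Level of Hoxa9, Hoxa7, Hoxa10, Hoxa5 and Meis1 in each cell, as log2(TPM + 1) on the vertical axis, for R9 cells without a title ending (32 points), R9 cells of ending 1 (35 points) and WT cells (22 points); horizontal bars are means and whiskers SDs over cells, stopped at 0. Hoxa9 is spread over the whole axis and highest in ending 1, Hoxa7 and Hoxa10 lie at 0 in every cell, Hoxa5 has 1 R9 and 1 WT cell above 0, and Meis1 has few high cells in each set.

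Across the tables the log2 ratio of Hoxa9 was 1.64 for R9 without an ending over WT, beside -0.67 for the median gene, and 5.55 for R9 of ending 1, beside 0.94 for the median gene. For all 67 R9 cells together it was 4.70, beside a median of 0.62. Ratios of 1 or more are common in these tables: they held for 26.6%, 48.8% and 43% of the genes used in those 3 comparisons. A size of 2-fold therefore says little by itself. Scaling each cell by 431 common genes lowered the ratio to 0.21, under 2-fold, for R9 without an ending, and to 3.59 and 2.77 for ending 1 and all R9 cells. On that scale the median gene stood at -0.64, 0.40 and 0.23 in the same order of comparisons. Without the highest cell of each group the ratios were 2.15, 6.29 and 5.42. Without the cells that had 20% or more of their TPM in 1 gene, Hoxa9 was seen in 10 of 18 R9 cells of the series without an ending (55.6%) and in 11 of 21 WT cells (52.4%). The ratio was then 1.66. The R9 cell set as a whole averages 2 series that differ, so values by series are given below, beside any pooled value.

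The neighbours of Hoxa9 were hardly seen with it. Hoxa10, its 5′ neighbour and another gene of early blood cells, and Hoxa7, its 3′ neighbour, were listed at 0 in all 67 R9 and all 31 WT columns. The exact intervals of 0 cells reach 10.9% of R9 cells without an ending, 10.003% of those of ending 1 and 15.4% of WT cells, and listed zeros can be failed estimates. Of the 23420 genes, 9389 (40.1%) were likewise listed at 0 in every column. Hoxa5, which is best known for roles in the lung and axial skeleton, was seen in 0 of 32 R9 cells without an ending, 1 of 35 of ending 1 (34.3 TPM) and 1 of 22 WT cells (22.7 TPM). Hoxa9 was seen in the same 2 cells, at 391 TPM in the R9 cell and 14.5 TPM in the WT cell, whose 7518 genes were the most of any cell. The R9 cell had 4549 genes and was 1 of the 4 cells of ending 1 with over 4000. Each Hoxa5 mean rests on 1 cell, so no ratio is drawn from it.

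Farther along the cluster, Hoxa2, Hoxa3, Hoxa4, Hoxa6, Hoxa11 and Hoxa13 were listed at 0 throughout. The remaining HOX clusters were as empty. All 10 HOXB genes were at 0, and single cells held Hoxc5 (an R9 cell without an ending, 13.8 TPM), Hoxc12 (a WT cell, 7.74 TPM) and Hoxd4 (a WT cell, 3.53 TPM). Among all 39 HOX genes, Hoxa9 made up 99.2%, 99.8% and 91.1% of the summed mean TPM in R9 without an ending, R9 of ending 1 and WT. The other 38 genes had a value above 0 in 1 of 1216, 2 of 1330 and 3 of 836 pairs of a gene and a cell. The pattern of Hoxa9 with no neighbour was thus found in WT cells too, at a lower level of Hoxa9.

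**Figure D2:**
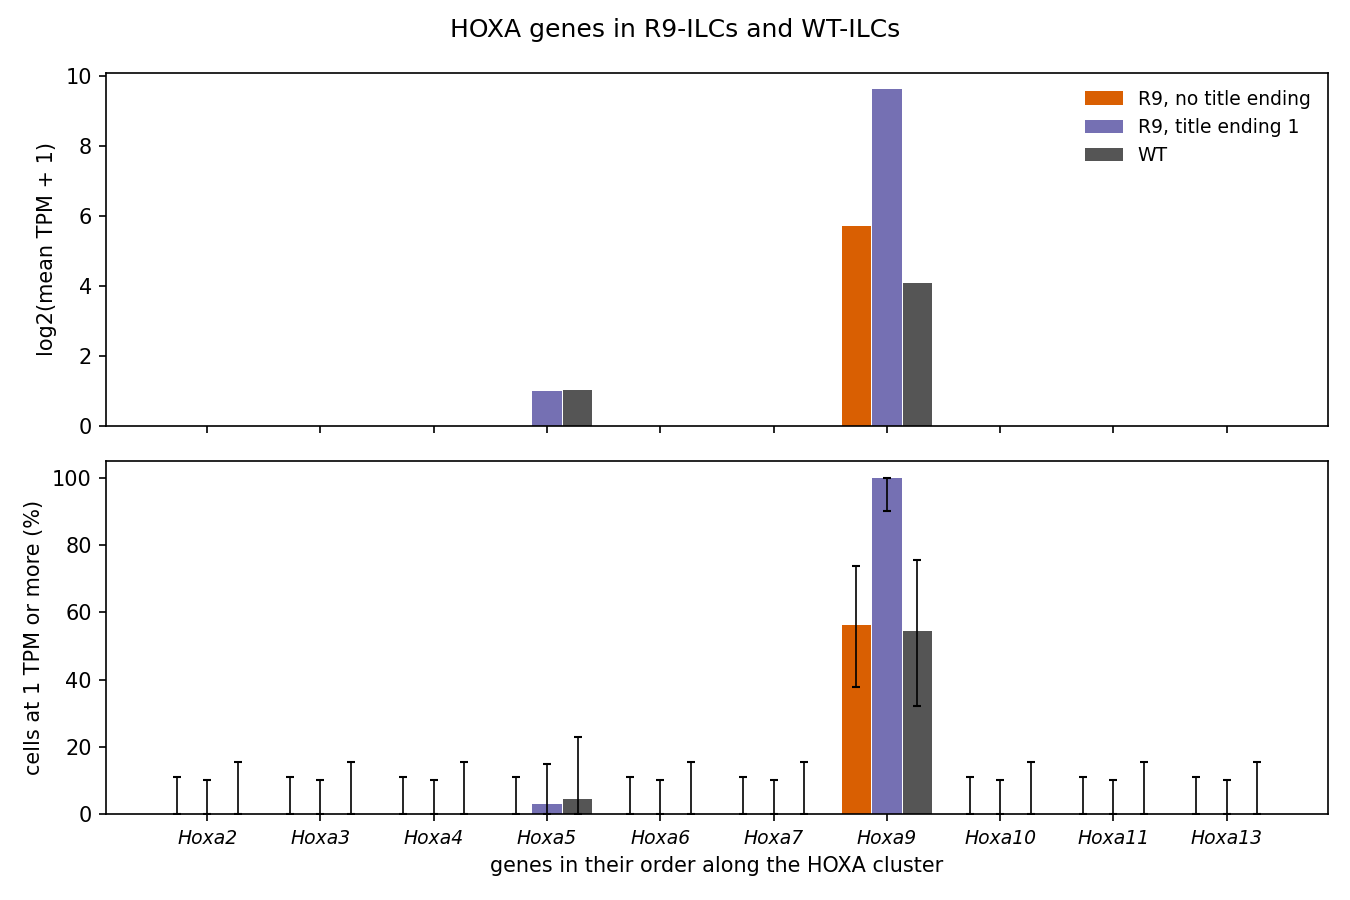
HOXA genes in their order along the cluster, with log2(mean TPM + 1) above and the percentage of cells at 1 TPM or more below (error bars are exact 95% intervals), for R9 cells without a title ending, R9 cells of ending 1 and WT cells from left to right. Hoxa9 stands alone in each set at 56.2%, 100% and 54.5% of cells, and the only other bars are those of Hoxa5, from single cells.

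Of 12 non-coding genes of the HOXA region looked up, 4 had an entry. Mira, a non-coding RNA described in mouse embryonic stem cells, is placed by RefSeq inside the Hoxa7 span, at chr6:52214491-52215288. It was seen in 3 of the 32 R9 cells without an ending (9.38%, 1.98 to 25.02; highest 35.3 TPM), 0 of 35 of ending 1 and 0 of 22 WT cells. The intervals of ending 1 (0 to 10.003) and WT (0 to 15.4) overlap it. The row of Mir196b, whose exon lies within the Hoxa9 exons, was at 0 throughout, and whether reads there were counted to Hoxa9 is not given in the sources used here.

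Runx1, the transcription factor that starts definitive blood formation and the other transgene of the R9 system, moved with Hoxa9 in 1 R9 series. Its TPM had a lowest value, median and highest value of 0, 19.7 and 193 in R9 cells without an ending, of 1.19, 421 and 1612 in R9 cells of ending 1, and of 0, 2.20 and 89.0 in WT cells. Like Hoxa9 it was seen in 35 of 35 cells of ending 1, and both genes were at 100 TPM or more in 26 of those 35 cells, in 1 of 32 R9 cells without an ending and in 0 of 22 WT cells. Across cells the Pearson r of log2(TPM + 1) between Hoxa9 and Runx1 was 0.12 (Spearman 0.11) in R9 without an ending, 0.92 (0.93) in ending 1 and 0.67 (0.58) in WT. These are descriptions over 32, 35 and 22 cells, in which both genes share the depth and the scaling of the cell. Without the 2 cells farthest from the median of Hoxa9, r was -0.041 without an ending and 0.89 in ending 1.

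Hoxa9 TPM over Runx1 TPM was compared in the cells that had both genes. In the 13 such R9 cells without an ending the median ratio was 2.11 (quartiles 1.38 and 4.30, range 0.35 to 6.13), and 6 cells lay within 2-fold of it. In the 35 cells of ending 1 the median was 1.43 (1.04 and 1.74, range 0.032 to 4.46), with 28 cells within 2-fold. In the 10 such WT cells it was 1.73 (1.51 and 2.09, range 0.28 to 6.10), with 7 cells within 2-fold, so the middle of the WT cells was as narrow as that of ending 1. The 7 cells of ending 1 with Hoxa9 at 11.8 TPM or less included 5 with Runx1 below 5 TPM, while the highest Runx1 among them was 87.8 TPM. The other 28 cells had Runx1 between 34.3 and 1612 TPM. In R9 cells without an ending, 13 cells had both genes, 5 Hoxa9 alone, 10 Runx1 alone and 4 neither.

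**Figure D3:**
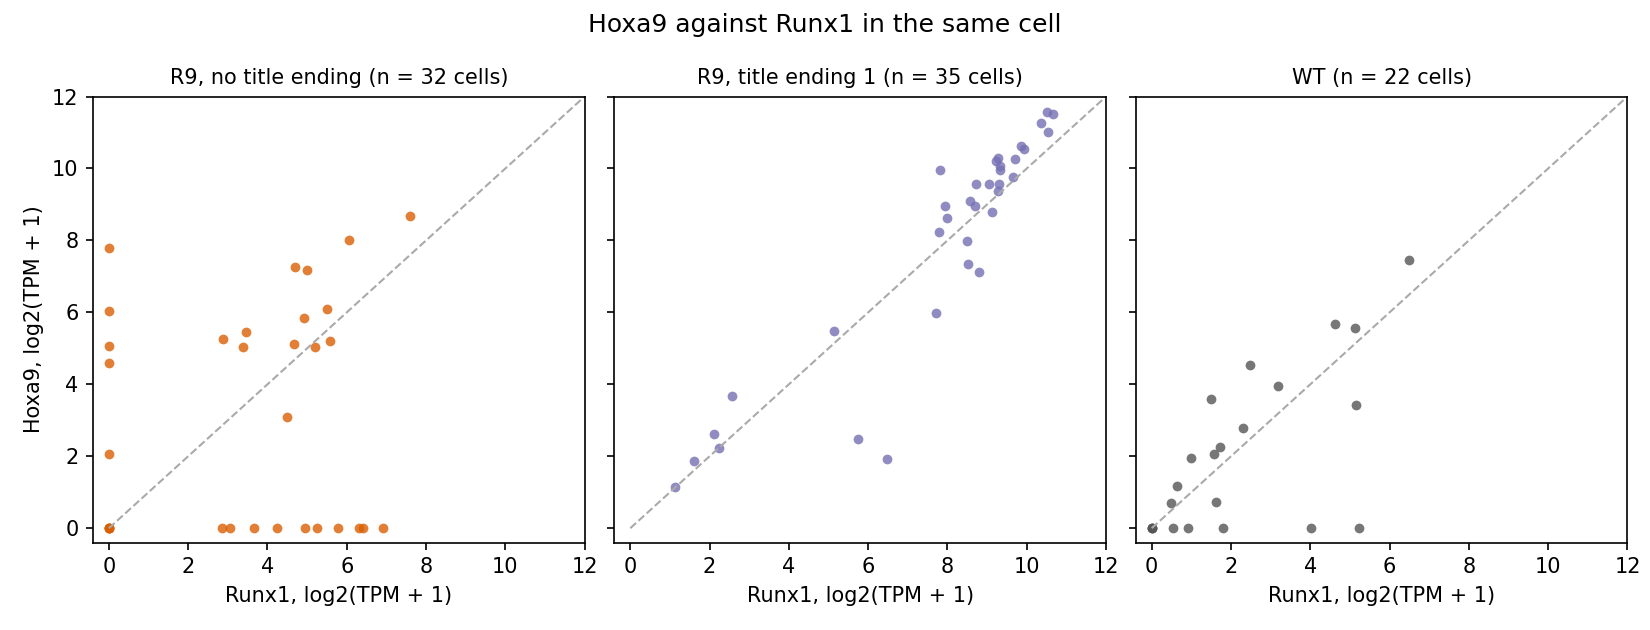
Hoxa9 against Runx1 in each cell, both as log2(TPM + 1), for R9 cells without a title ending (left, 32 cells), R9 cells of ending 1 (middle, 35 cells) and WT cells (right, 22 cells); the dashed line marks equal values. The cells of ending 1 lie along the line (Pearson r 0.92), those without an ending are scattered with many at 0 for 1 gene (0.12), and WT cells lie low (0.67).

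Meis1, the partner of Hoxa9 that stabilises its binding with PBX, was seen in a minority of cells of every set. Its lowest value and median were 0 TPM in R9 cells without an ending, R9 cells of ending 1 and WT cells, and its highest values were 144, 438 and 330 TPM. It was detected in 11 of 32 (34.4%, 18.6 to 53.2), 13 of 35 (37.1%, 21.5 to 55.1) and 6 of 22 cells (27.3%, 10.7 to 50.2). The shares overlap in their intervals. The levels in ending 1 were split: 5 cells lay between 214 and 438 TPM and the other 30 at 3.76 TPM or less, while the 11 positive cells without an ending covered 4.14 to 144 TPM.

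Meis1 means were 18.3 ± 38.4 TPM (SD over 32 cells), 52.5 ± 133 TPM (SD over 35 cells) and 17.9 ± 70.3 TPM (SD over 22 cells) in R9 without an ending, R9 of ending 1 and WT. In WT, 1 cell held 83.8% of the summed Meis1. The log2 ratio over WT was 0.03 for R9 without an ending and 1.499 for ending 1, against medians of all genes of -0.67 and 0.94. Without the highest cell of each group the values were 1.92 and 3.38, so they rest on the highest cells. With the WT columns of title ending 1 alone, which include that cell, they were -0.96 and 0.50. With those of ending 2 alone they were 1.86 and 3.33. Leaving out cells in which 1 gene held 20% or more of the TPM gave -0.86 and 1.52. No direction is given for Meis1 in R9 without an ending.

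**Figure D4:**
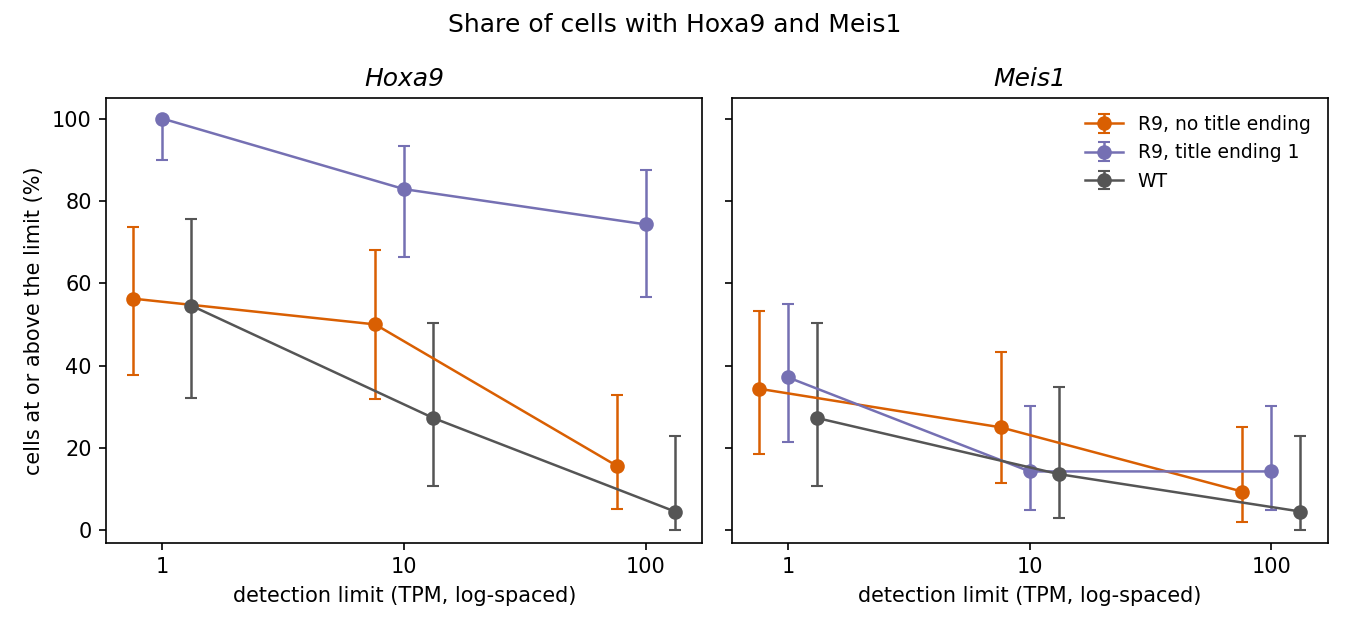
Percentage of cells at or above a limit of 1, 10 and 100 TPM (horizontal, log-spaced) for Hoxa9 (left) and Meis1 (right), in R9 cells without a title ending, R9 cells of ending 1 and WT cells; error bars are exact 95% intervals. Hoxa9 of ending 1 has the highest share at every limit (100%, 82.9% and 74.3%). At 10 TPM its interval (66.4 to 93.4) overlaps that of R9 without an ending (50%, 31.9 to 68.1). The 3 Meis1 curves overlap in their intervals.

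Meis1 was seen in cells with Hoxa9 and, in R9 without an ending and in WT, in cells without it. Among R9 cells without an ending, 7 had both at 1 TPM or more, 11 Hoxa9 alone, 4 Meis1 alone and 10 neither. Meis1 was thus seen in 38.9% of the cells with Hoxa9 (17.3 to 64.3) and 28.6% of those without it (8.39 to 58.1). In WT, 3 cells had both, 9 Hoxa9 alone, 3 Meis1 alone and 7 neither, or 25% (5.49 to 57.2) and 30% (6.67 to 65.2). In ending 1 all 13 Meis1 cells had Hoxa9, as had every cell of that series. The Pearson r of log2(TPM + 1) was 0.34, -0.16 and -0.26 in R9 without an ending, R9 of ending 1 and WT. The 5 cells of ending 1 with high Meis1 had Hoxa9 from 5.09 to 1500 TPM, and the WT cell with the highest Meis1 had Hoxa9 listed at 0.

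The PBX genes described here, which encode DNA-binding partners of both proteins, were nearly unseen. Pbx2 was found in 0 of 32 R9 cells without an ending, 2 of 35 of ending 1 (highest 9.47 TPM) and 2 of 22 WT cells (highest 18.9 TPM). Pbx3, which is often found with HOXA9 in human leukaemia, was in 1 cell of ending 1, at 629 TPM, and listed at 0 in all WT cells. Pbx4 was in 1 R9 cell without an ending, at 17.3 TPM. The upper end of the widest of these intervals, that of Pbx2 in WT, is 29.2% of cells.

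Among the other TALE genes, Pknox1, which encodes the MEIS relative PREP1, was seen in 1 of 32, 4 of 35 and 3 of 22 cells, Tgif2 in 1, 0 and 0 cells, and Meis2, Meis3 and Pknox2 were listed at 0 everywhere. Tgif1, a TALE repressor that opposes TGF-beta and retinoid signals, was the most frequent. It was seen in 5 of 32 (15.6%, 5.28 to 32.8), 17 of 35 (48.6%, 31.4 to 66.0) and 3 of 22 cells (13.6%, 2.91 to 34.9), with means of 12.4 ± 35.9, 134 ± 272 and 11.1 ± 43.1 TPM in R9 without an ending, R9 of ending 1 and WT (SD over cells). The log2 ratio was 0.14 without an ending and 3.48 in ending 1, and 1.58 and 5.13 without the highest cells, since 1 WT cell held 82.5% of the WT sum. Of the 10 TALE cofactors besides Meis1, 4 had a mean of 1 TPM or more in ending 1 or WT: 2 of them were past 2-fold higher (Tgif1, and Pbx3 from its 1 cell) and 0 lower, beside 48.8% of all genes higher and 20.4% lower. Without an ending 4 were used: Tgif2 was read as higher from 1 cell, with WT listed at 0, Pbx2 (listed at 0) and Pknox1 as lower, and Tgif1 lay between. Of all genes, 26.6% were higher and 44.5% lower in that comparison, so nothing particular to TALE genes is read from these calls.

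Genes that set HOX expression in development were a mixed group. This list of trithorax, Polycomb, histone acetylation and CDX genes had 33 members, 32 of them in the tables. In R9 of ending 1 over WT, 16 of 27 used were past 2-fold higher and 2 lower (median log2 ratio 1.74, beside 0.94 for all genes, with 48.8% of all genes higher and 20.4% lower); without an ending, 10 of 25 were higher and 5 lower (median 0.48, beside -0.67, with 26.6% of all genes higher and 44.5% lower). Over all R9 cells 17 of 28 were higher and 2 lower, beside 43% and 21.3% of all genes, and scaling by common genes gave 11 and 6 of 26. Nothing particular to the list is read from these counts.

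By size of the R9 ratio, the named members were Cdx1, Cbx8, Kat7, Cbx7 and Kdm6a. Cdx1, a homeobox gene of intestinal epithelium that activates HOX genes in the embryo, had a log2 ratio of 5.61, or 0.71 without the highest cells, because 1 R9 cell without an ending held 51749 TPM. Its ratio was 6.67 without an ending and -0.44 in ending 1. Cbx8 and Cbx7, subunits of Polycomb repressive complex 1, had ratios of 2.53 and 3.31 without an ending and 5.74 and 3.09 in ending 1. Cbx7 was seen in 14 of 32 (43.8%, 26.4 to 62.3), 12 of 35 (34.3%, 19.1 to 52.2) and 3 of 22 cells (13.6%, 2.91 to 34.9), and Cbx8 in 3, 5 and 1 cells. Kat7, a histone acetyltransferase, was seen in 5, 9 and 2 cells with ratios of 1.74 and 4.06, and Kdm6a, which removes the Polycomb mark from histone H3, in 4, 6 and 4 cells with ratios of 1.65 and 3.27. The intervals of the R9 and WT shares overlap for each of these 5 genes.

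Genes described as targets of HOXA9 and MEIS1 in mouse or human leukaemia and progenitors lay on both sides of 0. Of 24 in the tables, 19 were used for ending 1, with 5 past 2-fold higher and 3 lower (median log2 ratio 0.58), and 21 for R9 without an ending, with 4 higher and 10 lower (median -0.66). Over all genes the medians were 0.94 and -0.67, with 48.8% higher and 20.4% lower in ending 1 and 26.6% higher and 44.5% lower without an ending. Kit, Bcl2, Il7r and Id2, which ILCs use themselves, had log2 ratios of 0.39, -0.06, 0.17 and 0.80 over all R9 cells. By series, these genes stood at -0.42, -0.14, -1.57 and 0.47 without an ending, where the median gene was at -0.67, and at 0.87, 0.01, 0.88 and 1.04 in ending 1, where it was at 0.94. Kit, Bcl2 and Il7r thus changed sign between the series, as did the median gene. Kit and Bcl2 were past 2-fold in neither series, and Il7r only without an ending. The progenitor genes Flt3 and Erg, which Meis1 and Hoxa9 act on in leukaemia, had means of 0.08 and 0 TPM in R9 and were listed at 0 in WT.

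The named targets past 2-fold over all R9 cells were Sox4, Stat5a, Cdk6, Igf1r and Hif1a. Sox4, a transcription factor of early lymphoid cells, was seen in 15 of the 32 R9 cells without an ending (46.9%, 29.1 to 65.3), 0 of 35 of ending 1 (0%, 0 to 10.003) and 5 of 22 WT cells (22.7%, 7.82 to 45.4). Its mean was 12.8, 0.12 and 184 TPM, but 1 WT cell held 88.6% of the WT sum, and without the highest cells the ratio for all R9 cells was -2.02 in place of -4.69. Cdk6, a cell cycle kinase, was seen in 7 of 32 (21.9%, 9.28 to 39.97), 0 of 35 (0 to 10.003) and 2 of 22 cells (9.09%, 1.12 to 29.2), and its ratio of -1.97 became 0.45 without the highest cells. Stat5a and Stat5b, signal carriers of the interleukin 7 receptor, lay on opposite sides at 3.19 and -1.38 over all R9 cells. Stat5a was at 1.72 without an ending and 3.85 in ending 1, and Stat5b at -2.83 and -0.72. Igf1r, a growth factor receptor, was at 1.67 (-0.66 without an ending, 2.47 in ending 1), and Hif1a, the oxygen-response factor, at -1.57 (-3.09 and -0.89).

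The genes whose level across R9 cells was most like that of Hoxa9 were Runx1, Chmp3, Bnip3l, Chchd2 and Rps27l, by the mean of the Pearson r within the R9 series without an ending and the r within ending 1 (32 and 35 cells). Of 1921 genes seen in at least 30% of the cells of each series, Runx1 had the highest mean r, 0.52. It ranked 1 in ending 1 (0.92) and 833 without an ending (0.12). Chmp3, an ESCRT-III subunit, had 0.40 (0.55 without an ending and 0.25 in ending 1), Bnip3l, a mitophagy receptor, 0.38, the mitochondrial gene Chchd2 0.37 and the ribosomal protein relative Rps27l 0.37. The 99th percentile of the mean r of the 1921 genes was 0.31, which the genes named as most like Hoxa9 pass by how they were picked. Meis1 ranked 534, with a mean r of 0.09.

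Markers of other cell types differed between the sets and their part in the Hoxa9 and Meis1 values was not tested. Of 8 mast cell markers, 7, 1 and 1 were seen in any cell of R9 without an ending, R9 of ending 1 and WT, and their summed level ranged from 67.3 to 4659 TPM (median 1349), 0 to 616 TPM (median 0) and 0 to 3.91 TPM (median 0); Ms4a2 was listed at 0 in all 3 sets. Of 12 epithelial markers, 9, 10 and 11 were seen, with summed levels of 0 to 435758 TPM (median 715), 0.75 to 10848 TPM (median 35.8) and 11.7 to 95115 TPM (median 7471), and Lgr5 was listed at 0 in all 3. Of 6 macrophage markers, 6, 4 and 5 were seen, with 39.99 to 3920 TPM (median 445), 0 to 1874 TPM (median 0) and 0 to 4816 TPM (median 1.49).

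The single cells with the highest sums of T cell and of red blood cell markers were in ending 1. The median sum of the red blood cell list was higher in R9 without an ending. Of 4 T cell markers, 2, 3 and 2 were seen in R9 without an ending, R9 of ending 1 and WT, with summed levels of 0 to 201 TPM (median 0), 0 to 6165 TPM (median 3.55) and 0 to 132 TPM (median 0.74), and Cd8a was listed at 0 in all 3. Cd3g, which encodes a CD3 chain, averaged 34.02, 792 and 13.6 TPM and was seen in 9 of 32, 25 of 35 and 11 of 22 cells. In the same order, Cd3e averaged 4.01, 0.48 and 0 TPM and Cd3d 0, 0.66 and 0.66 TPM. The T cell level in ending 1 was thus mostly that of Cd3g and not of the list as a whole. Of 4 erythroid markers, 2, 4 and 3 were seen, with summed levels of 0 to 10989 TPM (median 170), 0 to 194862 TPM (median 94.1) and 0 to 870 TPM (median 9.75). The globin gene Hba-a1 averaged 20.1, 7867 and 11.95 TPM, with 70.3% of the sum of ending 1 in 1 cell. The endothelial, progenitor and megakaryocyte lists, for cell types that use HOXA genes or Meis1, had a median of 0 TPM in each set. Their highest sums were 101, 370 and 497 TPM for the endothelial list, with Pecam1 seen in 3, 3 and 5 cells, 68.2, 2.67 and 22.2 TPM for the progenitor list, with Cd34 seen in 3, 1 and 0 cells, and 871, 98.9 and 36.1 TPM for the megakaryocyte list, with Gp1bb seen in 1, 4 and 6 cells. Cdh5 and Kdr, Procr, and Pf4 and Gp9 of those lists were listed at 0 in every cell.

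Among WT columns, Hoxa9 was seen in 15 of 31 and Meis1 in 6 of 31. In the 8 WT cells joined from more than 1 column, Hoxa9 was seen in every column of 1 cell, in some columns of 3 and in no column of 4, and Meis1 in some columns of 2 and in none of 6. In the joined cell 31, its columns had Hoxa9 at 19.5 and 0 TPM and Meis1 at 0 and 47.7 TPM. A gene at 47.7 TPM was therefore listed at 0 in a column taken as the same cell.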

How the data were processed

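The authors deposited TPM per gene symbol in 2 tables, 67 R9 and 31 WT columns, each normalized on its own so that a column sums to 1000000. Per the submitters' processing notes, StringTie 1.3.4, SAMtools 0.1.19, HISAT2 2.1.0 and bcl2fastq were used on the build mm10; the counting strand is not given in the sources used here, so reads of a gene and its antisense partner cannot be told apart. Depth is unknown. WT columns with a Pearson r above 0.8 of log2(TPM + 1), over genes at 1 TPM or more in both, were averaged (10 pairs, r from 0.844 to 0.995; the highest other r was 0.738). Ratios use a pseudocount of 1 TPM; a log2 ratio of 1 or more (or -1 or less) was read as past 2-fold for genes whose mean reached 1 TPM in R9 or WT. The ratio was run on simulated data for genes with a WT mean of 10 TPM or more. Those data held no zeros, so the run does not cover genes listed at 0 in many cells. Named genes were the members, HOXA genes, TALE genes at 1 TPM, up to 5 members of each list past 2-fold with a mean of 10 TPM (largest first), Runx1 and the 5 genes most like Hoxa9. Some genes are outside that rule and were chosen after their values were seen: Mira, the single-cell HOXC and HOXD genes, Kit, Bcl2, Il7r, Id2, Flt3, Erg, Stat5b, Pbx4 and the 4 genes sharing the detection pattern of Hoxa9. A few genes of these lists are not reported here. The members, lists and limits were chosen with earlier results of these data known. Coordinates are from GENCODE M21 (GRCm38) and promoter sequences from RefSeq (GRCm38.p6). The tools were matplotlib 3.10.9, scipy 1.17.1, pandas 2.3.3, numpy 2.4.6 and Python 3.11.15.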

Additional observations from a re-analysis of the deposited data

How the results depend on the processing

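Hoxa9 kept a positive log2 ratio in both R9 series under every alternative run, and it fell under 2-fold only in R9 without an ending with each cell scaled by common genes (0.21). That scaling gave 2.77 for all R9 cells and 3.59 for ending 1, a pseudocount of 10 TPM gave 4.11 and 4.95, leaving out the highest cells gave 5.42 and 6.29, and the difference of the means of log2(TPM + 1) gave 3.59 for all R9 cells. The 9 WT columns of title ending 1 gave 6.81, 3.76 and 7.66 for all R9 cells, R9 without an ending and ending 1. Meis1 did not keep its direction for all R9 cells or for R9 without an ending. WT columns of ending 1 gave -0.021, -0.96 and 0.50, those of ending 2 gave 2.81, 1.86 and 3.33, and leaving out the highest cells gave 2.94, 1.92 and 3.38. The difference of log2 means gave 0.64 and 0.52 for the series, and leaving out cells ruled by 1 gene gave -0.86 without an ending. At 10 TPM, Hoxa9 was in 50% of R9 cells without an ending, 82.9% of ending-1 and 27.3% of WT cells. The intervals of the 2 R9 series then overlapped. Meis1 was in 14.3% of ending-1 cells at that limit. Of the list counts over all R9 cells, a mean of 10 TPM left fewer genes in use. Higher were then 1 of 1 TALE gene, 10 of 17 chromatin regulators and 2 of 14 targets, with 0 of the 17 chromatin regulators lower. A pseudocount of 0.1 TPM gave 1 of 4 TALE genes and 4 of 28 chromatin regulators lower. The scaling gave 11 of 26 chromatin regulators higher and 6 lower, with 1 of 5 TALE genes lower. Shares over all genes were not computed for these alternatives, so no change is read from the counts. The r of Hoxa9 with Runx1 without an ending became -0.041 without its 2 farthest cells. The causes were not tested. The alternatives on cells ruled by 1 gene and on the farthest cells were added after the data were seen. No paired analysis was possible because the labels name no animals and no test was run.

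Depth is unknown, a listed 0 can be a failed estimate, and 1 sample a group gives no replicate check. A batch and the title series cannot be told apart.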
